A study of Mus musculus with 17 samples.

Results

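The G1 machinery of skeletal cells was followed here through 10 genes, the D-type cyclins Ccnd1, Ccnd2 and Ccnd3, their partner kinases Cdk4 and Cdk6, and the inhibitors Cdkn1a (p21), Cdkn1b (p27), Cdkn2a (p16Ink4a and p19Arf), Cdkn2b (p15) and Cdkn2c (p18). The 10 genes were taken as a list by symbol, among 55335 genes in the count files, and each of them passed the filter on low counts in the 3 fits the values below come from. The data are bulk RNA sequencing of osteoprogenitor cells (OPCs) and skeletal stromal/stem cells (SSCs) sorted from digested mouse bone, in 17 libraries. Both populations were sorted as CD51-positive cells without the blood and endothelial markers CD45, Ter119 and CD31, the SSCs as Sca-1+ PDGFRα+ and the OPCs as Sca-1- cells with or without PDGFRα. Mice carried 2 normal Cxcr4 alleles (Cxcr4+/+, called WT), 1 copy of the 1013 allele (+/1013) or 2 copies (1013/1013), and the study's methods give 8 to 12 weeks as the age and pools of 3000 cells from 3 mice per library. The 1013 allele encodes a chemokine receptor with a shortened tail that is turned off less well after ligand binding, as in WHIM syndrome. It is carried by every cell of these mice, so that differences in a sorted population need not arise in that population. There were 3 libraries per genotype and cell type, except 2 for 1013/1013 SSCs.

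Cells leave G1 when D-type cyclins bind Cdk4 or Cdk6 and the complexes phosphorylate the retinoblastoma protein, which releases E2F factors that switch on the genes of S phase. The INK4 proteins, encoded by Cdkn2a, Cdkn2b and Cdkn2c, bind Cdk4 and Cdk6 and keep cyclins from them. The CIP/KIP proteins p21 and p27 block Cdk2 complexes and also help to assemble those of Cdk4. In bone, stem-like stromal cells divide rarely and their osteoblastic progeny expand before they mature, and the balance of these regulators is among the known controls of that step. Much of it is set on the protein, by phosphorylation and degradation, which RNA levels do not show.

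The OPC libraries held 64099849 to 92683497 counts on genes and the SSC libraries 44217695 to 50509592, and levels are given as counts-per-million values (CPM). Detection was taken to end at 3 counts, which is 0.0324 to 0.0468 CPM in OPCs and 0.0594 to 0.0678 CPM in SSCs. This floor covers counting error only, since PCR copies were not told apart. Of 7 genes listed as sorting markers, 4 were higher and 3 lower in SSCs on average over genotypes. In each direction 2 of them had an adjusted p under 0.05 (edgeR) and changed at least 1.5-fold. The list as a whole is therefore no check of the labels. Taken singly, the sorting marker Ly6a and the osteoblast gene Sp7 followed them. Ly6a, which encodes Sca-1, lay at 386 CPM or more in every SSC library and at 12.4 CPM or less in every OPC library, and the osteoblast transcription factor Sp7 was higher in every OPC library than in any SSC library. Cxcr4 itself is not deleted by the 1013 allele, so its counts cannot check the genotype labels. Its log2 fold change over WT was -6.20 in +/1013 and -5.15 in 1013/1013 SSCs, against -0.06 and -0.13 in OPCs. Both SSC values had an unadjusted edgeR p under 0.05, and neither passed after adjustment. Leukocyte markers had median log2 fold changes of -4.86 and -1.82 in the same SSC comparisons. What part leukocyte RNA has in the Cxcr4 values was not tested. Some libraries stood apart. The summed level of 12 leukocyte markers was 10049.8 CPM in the library OPC WT replicate 3, 7863 CPM in OPC 1013/1013 replicate 2 and 3346 CPM in SSC WT replicate 3, against 49.2 to 227 CPM in the other OPC libraries and 39.5 to 882 CPM in the other SSC libraries, although CD45+ cells had been gated out. Ptprc, which encodes CD45, had 52.8, 118 and 120 CPM in these 3 libraries and 9.20 CPM or less in the other 14. Erythroid markers summed to 11.2 to 3289 CPM in OPCs and 111 to 905 CPM in SSCs, and endothelial markers to 4.36 to 75.8 CPM and 28.4 to 175 CPM. The same 3 libraries had the highest sums over 10 proliferation markers, 382, 358 and 329 CPM, against 60.8 to 148 CPM elsewhere. SSC 1013/1013 replicate 1 had the fewest genes with a count (15748, against 17808 to 22599 in the other SSC libraries) and the lowest mean rank correlation with the other libraries of its cell type (0.862, against 0.892 to 0.927). In it Rb1, the gene of the retinoblastoma protein, had 2 counts, where the other SSC libraries had 483 to 1337. The WT SSC libraries had 21449 to 22599 genes with a count, and all mutant SSC libraries had 15748 to 19227. Reads in no annotated feature were 3.68% to 4.15% in WT and 1.5% to 2.69% in mutant SSC libraries. In SSCs a genotype effect cannot be told apart from this difference between libraries.

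**Figure D1:**
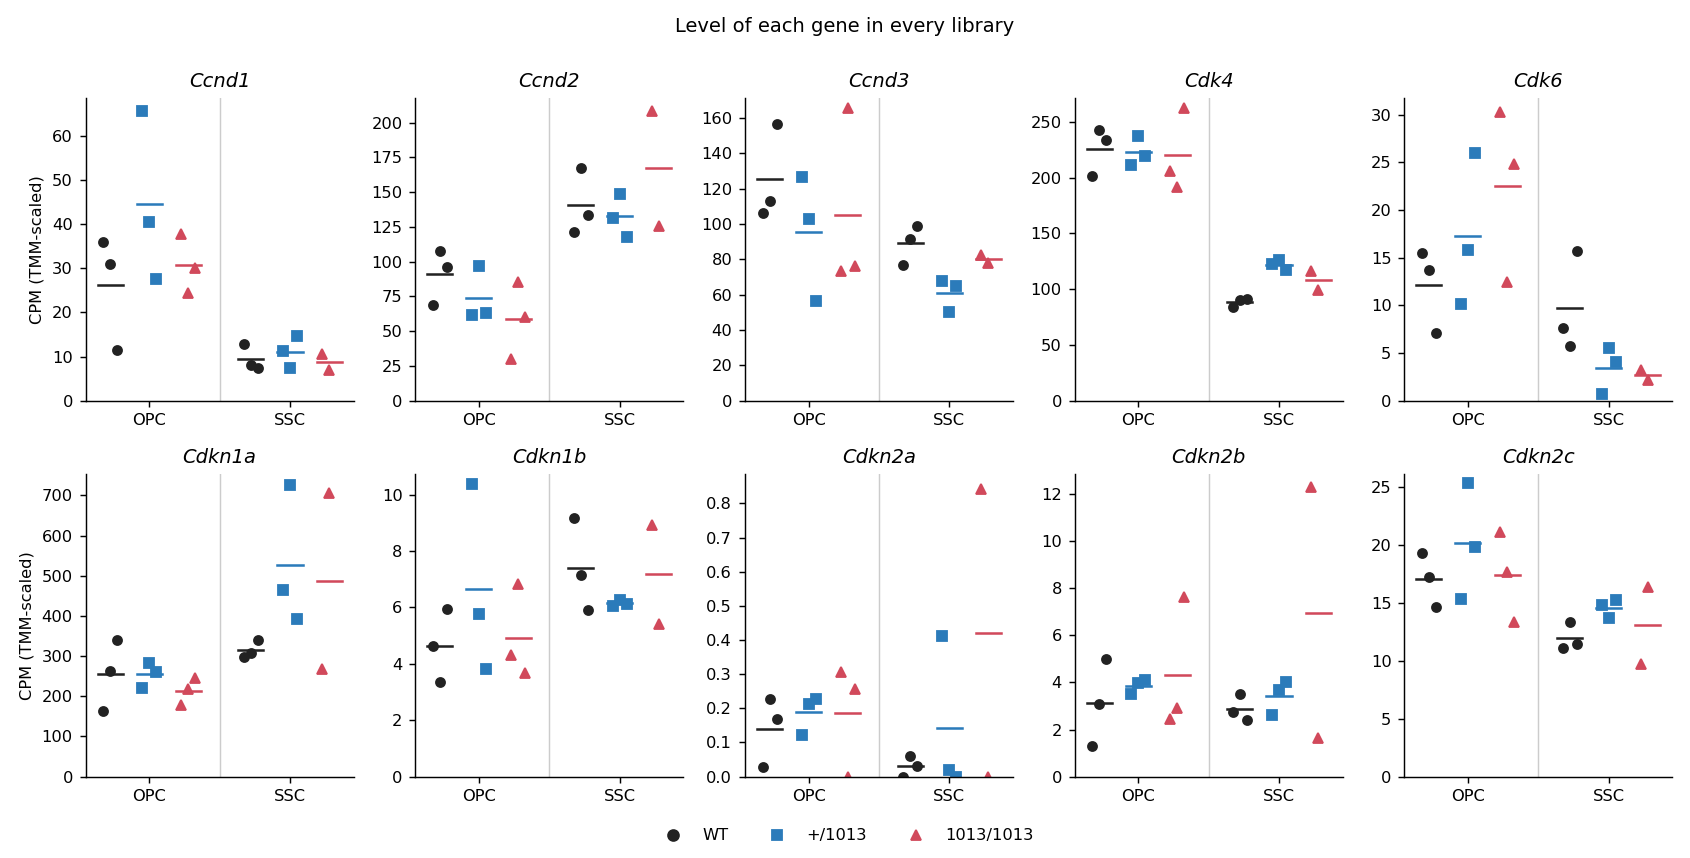
Levels of the 10 genes in CPM, scaled by TMM over all libraries, with 1 point per library, the mean of each group as a horizontal line, and a separate axis from 0 for each gene. Cdk4 and Ccnd2 separate the cell types without overlap, at 192 CPM or more in OPCs and 126 CPM or less in SSCs for Cdk4, and at 108 CPM or less in OPCs and 118 CPM or more in SSCs for Ccnd2.

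The first comparison asked how the 2 cell types differ in these genes. Averaged over the 3 genotypes in a single fit of all 17 libraries, 5 of the 10 genes were called, that is, they had an adjusted p under 0.05 and changed at least 1.5-fold. Cdk4, Cdk6 and Ccnd1 were lower in SSCs, and Ccnd2 and Cdkn1a were higher. Over all 20238 genes tested 30.2% were called, 15.3% higher and 14.9% lower in SSCs, so that 5 of 10 stands against a background of nearly 1 gene in 3. On the log2 scale the members had a median difference of -0.45, against -0.04 over everything tested. The 9 OPC and 8 SSC libraries did not overlap for 2 of the 10 genes, Cdk4 and Ccnd2, and 10.9% of all genes tested separated in this way. All p-values here measure only the spread between libraries, which the study's legends call biological replicates, each from a pool of 3 mice. The labels do not tie libraries to animals, and bulk counts cannot tell fewer expressing cells from less RNA per cell.

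Ccnd2 encodes the D-type cyclin that was the most abundant of the 3 per unit of length in SSCs (ENSMUSG00000000184.12, chr6:127125162-127152193, minus strand of GRCm38). Its level in OPCs was between 30.0 and 108 CPM with a median of 68.9 CPM, and in SSCs between 118 and 209 CPM with a median of 133 CPM. The SSC library with the least Ccnd2 lay above the OPC library with the most. The fitted difference was 1.99-fold higher in SSCs (log2 1.00 ± 0.20 SE, edgeR adjusted p = 0.00177). By genotype the log2 difference was 0.63 ± 0.34 in WT, 0.84 ± 0.34 in +/1013 and 1.51 ± 0.37 in 1013/1013 cells, and it passed both thresholds in the last alone (edgeR adjusted p = 0.245, 0.122 and 0.0162). The largest value, 209 CPM, came from SSC 1013/1013 replicate 1.

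Ccnd1, the cyclin most often tied to growth factor signals (ENSMUSG00000070348.5, chr7:144929931-144939925, minus strand), ran the other way. OPC libraries had 11.4 to 65.7 CPM with a median of 31.0 CPM, and SSC libraries 6.85 to 14.7 CPM with a median of 9.40 CPM. A single OPC library, OPC WT replicate 3, reached into the range of the SSCs, and the next lowest OPC library had 24.4 CPM. Ccnd1 was 3.39-fold lower in SSCs (log2 -1.76 ± 0.27 SE, edgeR adjusted p = 0.000256), and it was called in each genotype taken alone, with log2 differences of -1.46 ± 0.44, -2.01 ± 0.45 and -1.82 ± 0.52 in WT, +/1013 and 1013/1013 cells. Under alternative analyses the call held in all 14 for +/1013, and was lost in 8 of 14 for WT and 5 of 13 for 1013/1013 cells. Exons of Ccnd1 share 1100 bases, 23.4% of its merged exonic length, with LTO1 on the opposite strand, and the library kit does not keep strand, so reads there cannot be assigned to one of the genes.

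Ccnd3, the D-type cyclin best known from lymphocytes and their precursors (ENSMUSG00000034165.16, chr17:47505051-47599691, plus strand), was not called between the cell types. It lay between 56.5 and 165 CPM in OPCs (median 106 CPM) and between 50.3 and 99.0 CPM in SSCs (median 77.2 CPM), and all but the lowest SSC value lay inside the OPC range. The log2 difference was -0.51 ± 0.20 SE (edgeR adjusted p = 0.0636). The 2 OPC libraries with the most Ccnd3, OPC 1013/1013 replicate 2 at 165 CPM and OPC WT replicate 3 at 156 CPM, were those with the high leukocyte marker sums, and SSC WT replicate 3 had the most Ccnd3 among SSCs. Without these 3 libraries the log2 difference of Ccnd3 was -0.31 ± 0.17 SE (edgeR adjusted p = 0.195). Between 9 and 12 of the 12 leukocyte markers had at least 1 count in each of the 17 libraries, so it is their amount and not their presence that sets the 3 libraries apart. What part they have in the Ccnd3 values was not tested.

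Taken per kilobase of exon (RPKM), the D-type cyclins summed to 19.0 to 34.9 RPKM in OPCs and to 23.1 to 33.8 RPKM in SSCs, so the totals overlapped. The share of Ccnd2 did not. It gave 52.4% to 68.4% of the summed RPKM in the 8 SSC libraries and 16.3% to 37.1% in the 9 OPC libraries. Ccnd3 gave 24.8% to 41.7% in SSCs and 33.9% to 58.5% in OPCs. Ccnd1 gave 5.78% to 13.5% in SSCs and 7.94% to 41.1% in OPCs, with only OPC WT replicate 3 inside the range of the SSCs. Ccnd2 stood first in every SSC library. By these shares Ccnd3 stood first in every OPC library except OPC +/1013 replicate 3, where Ccnd2 had 35.3%. Ccnd1 came close to Ccnd3 in OPC +/1013 replicate 1 (39.96% against 41.24%) and OPC 1013/1013 replicate 1 (41.06% against 42.68%). The exonic bases that Ccnd1 shares with LTO1 are part of its length here, though reads there cannot be assigned. The Ccnd1 shares may therefore be too low, and its rank is not settled where shares are close.

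**Figure D2:**
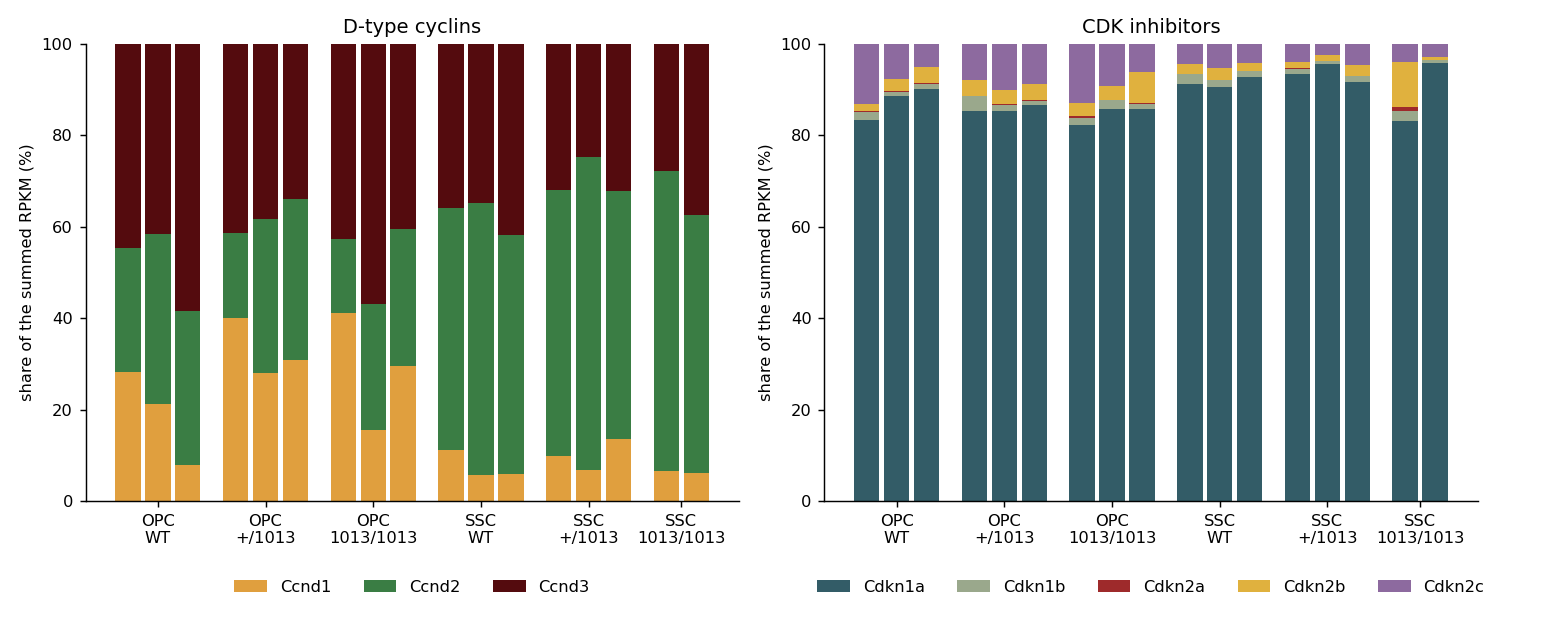
Share of each gene in the summed RPKM of the D-type cyclins (left) and of the 5 CDK inhibitors (right), with 1 bar per library, in percent. Ccnd2 takes 52.4% to 68.4% of the cyclin sum in SSCs and 16.3% to 37.1% in OPCs, and Cdkn1a takes 82.3% to 95.9% of the inhibitor sum in all libraries.

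Cdk4 was the member with the smallest adjusted p between the cell types (ENSMUSG00000006728.12, chr10:127063534-127067920, plus strand). The OPC libraries had 192 to 262 CPM with a median of 220 CPM, and the SSC libraries 83.7 to 126 CPM with a median of 108 CPM. The 2 ranges were far apart, and the spread within each was small, with coefficients of variation of 10.2% and 15.7%. Cdk4 was 2.12-fold lower in SSCs (log2 -1.08 ± 0.09 SE, edgeR adjusted p = 1.62e-06). It was called in each genotype, at -1.36 ± 0.16 in WT, -0.87 ± 0.15 in +/1013 and -1.03 ± 0.18 in 1013/1013 cells. Its exons share 641 bases, 19.7% of their length, with Tspan31 on the opposite strand.

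The 250 bases before the RefSeq start of Cdk4 are given because this member had the smallest adjusted p. They lie on the plus strand of GRCm38.p6 at chr10:127063285-127063534, and capitals mark the letters CACGTG, the E-box bound by MYC and related factors, which reads alike on both strands.
Cdk4: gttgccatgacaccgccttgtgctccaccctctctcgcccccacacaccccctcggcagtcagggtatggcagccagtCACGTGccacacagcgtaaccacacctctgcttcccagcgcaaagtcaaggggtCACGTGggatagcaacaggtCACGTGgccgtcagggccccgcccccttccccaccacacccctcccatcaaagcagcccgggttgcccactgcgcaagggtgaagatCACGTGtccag
The window holds 4 such matches. Of 32851 RefSeq promoter windows of that length, 6.02% hold at least 1 and 7 windows hold 4 or more. Of the other members with a window in the table, Cdk6 has 1 match and Ccnd3, Cdkn1a, Cdkn1b, Cdkn2a, Cdkn2b and Cdkn2c have none. The matches describe the sequence and say nothing of what bound there in these cells.

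Cdk6, the second partner kinase (ENSMUSG00000040274.11, chr5:3341485-3531008, plus strand), was present at a small fraction of Cdk4. Per kilobase, Cdk4 gave 96.1% to 99.9% of the sum of both in all 17 libraries. Cdk6 lay between 7.12 and 30.3 CPM in OPCs with a median of 15.5 CPM, and between 0.737 and 15.7 CPM in SSCs with a median of 4.77 CPM. The overlap came from the WT libraries, with 15.5, 13.7 and 7.12 CPM in OPCs and 7.66, 5.77 and 15.7 CPM in SSCs. On average over genotypes Cdk6 was 3.75-fold lower in SSCs (log2 -1.91 ± 0.40 SE, edgeR adjusted p = 0.00228). Within a genotype the log2 difference was -0.32 ± 0.63 in WT, where it was not called (edgeR adjusted p = 0.805), and -2.34 ± 0.66 and -3.07 ± 0.80 in +/1013 and 1013/1013 cells, where it was (edgeR adjusted p = 0.0327 and 0.0231). The WT value of Cdk6 depended on which libraries were kept, and ran from -0.85 to -0.05 when 1 library was left out. It was -0.85 without SSC WT replicate 3 and -1.12 without all 3 leukocyte-rich libraries, and was called in neither case. What part leukocyte RNA has in the Cdk6 values was not tested. The call of Cdk6 in +/1013 cells was lost without OPC +/1013 replicate 2 or 3 or SSC +/1013 replicate 1 or 3, with the replicate block and with only the 2 groups compared (edgeR adjusted p from 0.0529 to 0.123). In 1013/1013 cells its call was lost in 5 of 13 alternatives. Among these were leaving out OPC 1013/1013 replicate 1 or 3 and comparing only the 2 groups.

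**Figure D3:**
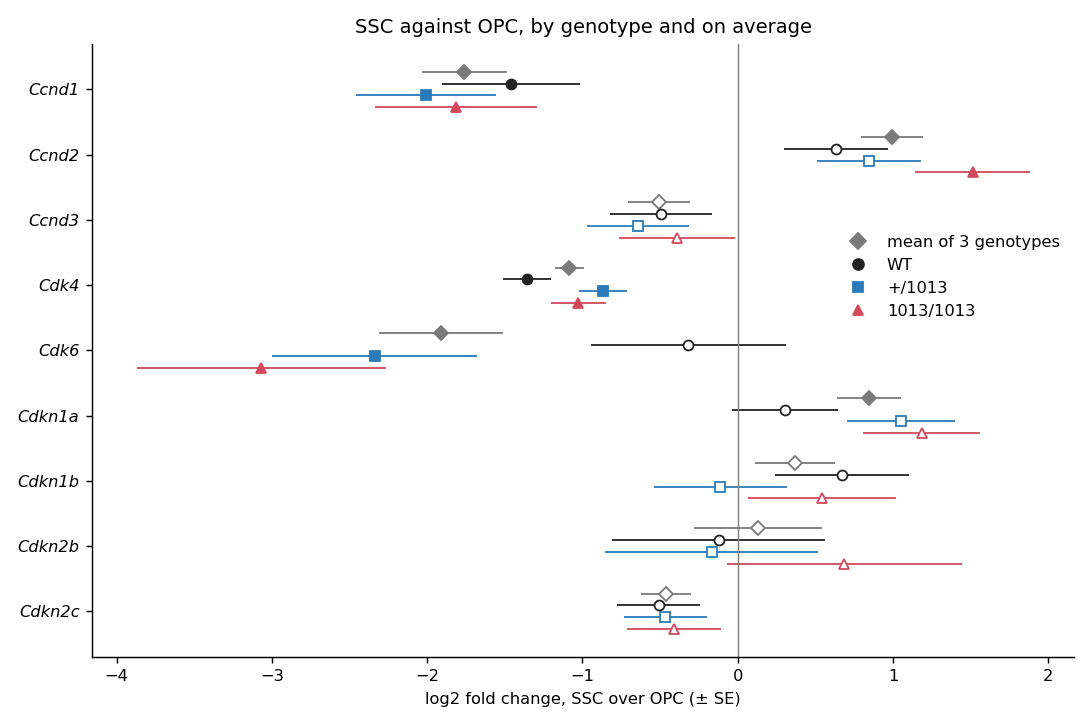
Log2 fold change of SSCs over OPCs for 9 of the genes, with its SE, on average over the genotypes (diamonds) and within WT (circles), +/1013 (squares) and 1013/1013 cells (triangles); filled symbols are called. Ccnd1 and Cdk4 are called lower in every comparison, and Cdk6 spreads from -0.32 in WT to -3.07 in 1013/1013 cells. Cdkn2a is left out for its low counts.

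Cdkn1a, which encodes p21, a target of p53 and of stress signals (ENSMUSG00000023067.14, chr17:29090976-29100727, plus strand), had the highest level per kilobase of the 5 inhibitors in every library. It gave 82.3% to 90.1% of the summed RPKM of the 5 inhibitors in OPCs and 83.2% to 95.9% in SSCs. Its level was 163 to 339 CPM in OPCs (median 246 CPM) and 268 to 725 CPM in SSCs (median 367 CPM). The WT values touched, with 163, 264 and 339 CPM in OPCs against 298, 309 and 340 CPM in SSCs, and the highest values came from mutant SSCs. Cdkn1a was 1.80-fold higher in SSCs on average (log2 0.85 ± 0.21 SE, edgeR adjusted p = 0.00598). Within a genotype it was not called, at 0.31 ± 0.34 in WT, 1.05 ± 0.35 in +/1013 and 1.19 ± 0.38 in 1013/1013 cells (edgeR adjusted p = 0.621, 0.0633 and 0.0546). In both mutant genotypes Cdkn1a was called under DESeq2 (adjusted p = 0.0277 and 0.0219), the newer edgeR fit (adjusted p = 0.0442 and 0.0377), a minimum of 10 counts (adjusted p = 0.0354 and 0.0299) and the replicate block (adjusted p = 0.0357 and 0.0435). It was not called in 9 of 14 alternatives for +/1013 and 8 of 13 for 1013/1013 cells, among them DESeq2 size factors and no filter. Leaving out 1 library gave log2 differences of 0.75 to 1.22 in +/1013 and 0.37 to 1.72 in 1013/1013 cells. Without SSC 1013/1013 replicate 2, where Cdkn1a had 705 CPM, the average difference of Cdkn1a was 0.57 ± 0.18 and fell just short of 1.5-fold.

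Cdkn1a varied among SSC libraries together with genes that tissue dissociation induces. The summed level of 12 such genes, among them Fos, Jun and Egr1, was 24804 and 25443 CPM in SSC +/1013 replicate 2 and SSC 1013/1013 replicate 2, where Cdkn1a stood at 725 and 705 CPM. SSC +/1013 replicate 1 came next on both measures, with 18737 CPM and 464 CPM. In the other 5 SSC libraries the sum was 13709 to 15454 CPM and Cdkn1a 268 to 393 CPM. In OPCs the order differed. The OPC library with the highest sum, OPC 1013/1013 replicate 1 at 23655 CPM, had 178 CPM of Cdkn1a, and the one with the lowest sum, OPC WT replicate 3 at 6788 CPM, had the most Cdkn1a, 339 CPM. What part the dissociation has in the Cdkn1a values was not tested.

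**Figure D4:**
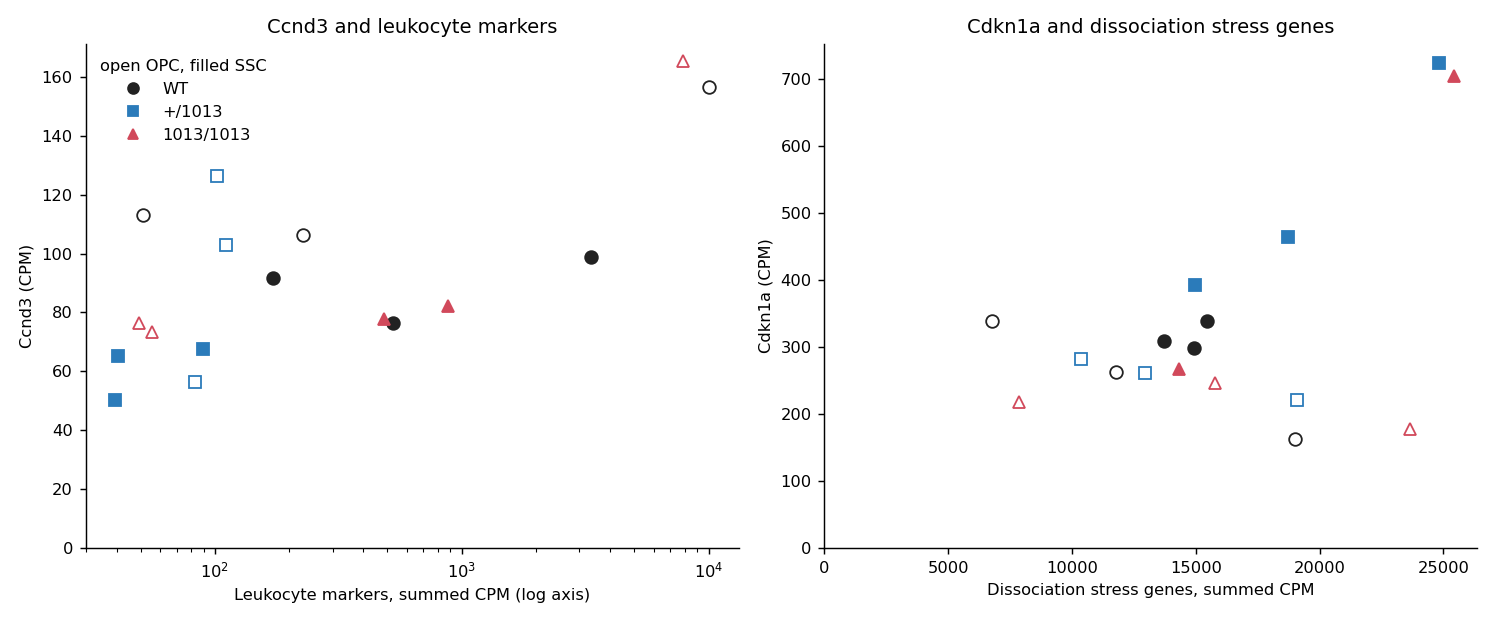
Ccnd3 against the summed CPM of 12 leukocyte markers on a log axis (left) and Cdkn1a against the summed CPM of 12 dissociation stress genes (right), with 1 point per library, open for OPCs and filled for SSCs. The 2 OPC libraries with sums of 7863 CPM or more have the most Ccnd3, and the 2 SSC libraries with stress sums of 24804 CPM or more have the most Cdkn1a.

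The 250 bases before the upstream RefSeq start of Cdkn1a are printed for the p53 half-sites in them, at chr17:29090729-29090978 on the plus strand of GRCm38.p6. Capitals mark matches to the p53 half-site, a 10-base consensus that reads alike on both strands, and these matches do not overlap each other.
Cdkn1a: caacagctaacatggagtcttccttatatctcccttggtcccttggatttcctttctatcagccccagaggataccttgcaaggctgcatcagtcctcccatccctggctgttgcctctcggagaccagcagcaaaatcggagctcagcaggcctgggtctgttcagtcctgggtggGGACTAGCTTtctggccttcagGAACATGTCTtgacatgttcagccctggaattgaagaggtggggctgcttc
This window has 2 half-site matches and the window of the second RefSeq start, at chr17:29093519-29093768, has none. At least 1 match is found in 7.13% of the 32851 windows, and the windows of the other members that have one hold none. Whether these letters were bound in OPCs or SSCs is not shown by expression data.

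Among the other inhibitors none was called between the cell types. Cdkn1b, encoding p27 (ENSMUSG00000003031.14, chr6:134920401-134925513, plus strand), lay between 3.35 and 10.4 CPM in OPCs and between 5.42 and 9.16 CPM in SSCs, with a log2 difference of 0.37 ± 0.26 (edgeR adjusted p = 0.303). Cdkn2c, encoding p18 (ENSMUSG00000028551.14, chr4:109660876-109667189, minus strand), was per kilobase the next most abundant inhibitor after Cdkn1a among these 5 in all but 2 libraries. Outside the 5, Cdkn1c and Cdkn2d, which are described with the rest of the pathway, were above Cdkn2c per kilobase in every library, and Cdkn1c came close to Cdkn1a in OPC 1013/1013 replicate 1 (49.9 against 50.1 RPKM). Cdkn2c lay at 13.3 to 25.3 CPM in OPCs and 9.75 to 16.3 CPM in SSCs. Its log2 difference of -0.46 ± 0.16 had an edgeR adjusted p of 0.0403 but stayed under 1.5-fold, so Cdkn2c was not called. Cdkn2b, encoding p15 (ENSMUSG00000073802.5, chr4:89306299-89311039, minus strand), lay between 1.30 and 7.63 CPM in OPCs and between 1.64 and 12.3 CPM in SSCs (log2 0.13 ± 0.41, edgeR adjusted p = 0.906). Without SSC 1013/1013 replicate 1, which had the 12.3 CPM, the log2 difference of Cdkn2b was -0.56 (edgeR adjusted p = 0.326).

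Cdkn2a (ENSMUSG00000044303.6, chr4:89274471-89294653, minus strand) encodes p16Ink4a and p19Arf from separate first exons, which counts per gene do not separate. It had 0 to 22 counts in the OPC libraries and 0 to 46 counts in the SSC libraries, that is 0 to 0.305 CPM and 0 to 0.843 CPM. Of the 17 libraries, 4 had no count at all and 3 more had 1 or 2, at or under the limit of detection, so no fold is given. The highest values were the 46 counts of SSC 1013/1013 replicate 1 and the 24 counts of SSC +/1013 replicate 1, while SSC 1013/1013 replicate 2 had 0. Cdkn2b, whose gene ends 11646 bases from that of Cdkn2a on chromosome 4, was also highest in SSC 1013/1013 replicate 1, at 671 counts against 88 to 234 in the other SSC libraries.

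Taken one genotype at a time, the cell type comparison called Ccnd1 and Cdk4 in WT (2 of 10, against 11.4% of all genes tested), Ccnd1, Cdk4 and Cdk6 in +/1013 (3 of 10, against 12.5%) and Ccnd1, Ccnd2, Cdk4 and Cdk6 in 1013/1013 cells (4 of 10, against 13.1%). These comparisons share no library with each other, though 1 fit gave the spread for all of them. The 1013/1013 count rests on single libraries, since leaving out any of OPC replicate 1, OPC replicate 3, SSC replicate 1 or SSC replicate 2 brought it to 2, with Cdk4 among them each time. In WT the call of Ccnd1 was lost, and the count was 1, without any one of OPC WT replicates 1 and 2 and SSC WT replicates 1, 2 and 3.

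The second question was whether the Cxcr4 mutation shifts these genes within a cell type. In SSCs no member was called in +/1013 or 1013/1013 cells against WT, where 0.0736% and 0% of the 17659 genes tested were called. At an unadjusted p under 0.05, 2 of the 10 members (Ccnd3 and Cdk4) passed in +/1013 and 0 passed in 1013/1013 cells, and DESeq2's Wald test also called 0 members. Of all genes, 3061 and 3224 had an unadjusted p under 0.05 and DESeq2 called 1302 and 1708. Without overlap, 5 members separated +/1013 from WT SSCs, Ccnd3 and Cdk6 as lower and Cdk4, Cdkn1a and Cdkn2c as higher, against 31.2% of all genes tested. Between 1013/1013 and WT SSCs 2 members did so, Cdk6 as lower and Cdk4 as higher, against 40.7% of all genes. Both mutant groups were compared with the same 3 WT libraries, each of which had more genes with a count than any mutant SSC library. The members had median log2 fold changes of 0.22 and 0.20, where those of all genes were -0.11 and -0.23.

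Cdk4 in SSCs was 83.7, 89.9 and 90.9 CPM in WT, 122, 126 and 117 CPM in +/1013, and 117 and 99.3 CPM in 1013/1013 libraries. All 5 mutant libraries lay above all 3 WT libraries and below all OPC libraries. The group means were 88.2 ± 3.9 (SD, n = 3), 122 ± 4.6 (SD, n = 3) and 108 ± 12 CPM (SD, n = 2), and the log2 fold changes over WT were 0.44 ± 0.15 and 0.31 ± 0.17 SE (edgeR adjusted p = 0.208 and 0.351).

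Cdk6 in SSCs was 7.66, 5.77 and 15.7 CPM in WT, 0.737, 5.52 and 4.02 CPM in +/1013, and 3.19 and 2.18 CPM in 1013/1013 libraries. The highest mutant value, 5.52 CPM, lay just under the lowest WT value. The log2 fold changes of Cdk6 were -1.54 ± 0.78 and -1.85 ± 0.91 SE (edgeR adjusted p = 0.361 and 0.32), and without SSC WT replicate 3, the library rich in leukocyte transcripts, they were -0.98 and -1.29. OPC Cdk6 showed 15.5, 13.7 and 7.12 CPM in WT, 10.1, 15.8 and 26.0 CPM in +/1013 and 30.3, 12.5 and 24.9 CPM in 1013/1013 libraries. There the groups overlapped and the mutant means were the higher ones, with log2 fold changes of 0.51 ± 0.47 and 0.89 ± 0.47.

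Ccnd3 in SSCs was 76.5, 91.7 and 99.0 CPM in WT, 67.7, 50.3 and 65.1 CPM in +/1013, and 82.2 and 77.9 CPM in 1013/1013 libraries. The +/1013 libraries lay below WT and the 1013/1013 libraries within its range (log2 -0.57 ± 0.19 and -0.14 ± 0.21 SE, edgeR adjusted p = 0.202 and 0.726). The leukocyte marker sums of the +/1013 SSC libraries, 39.5 to 89.8 CPM, were also below the 172 to 3346 CPM of the WT libraries. The part of leukocyte RNA in the Ccnd3 difference was not tested.

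Cdkn1a in SSCs was 298, 309 and 340 CPM in WT, 464, 725 and 393 CPM in +/1013, and 268 and 705 CPM in 1013/1013 libraries. The +/1013 libraries all lay above WT and the 1013/1013 libraries fell on both sides of it. Log2 fold changes were 0.72 ± 0.37 and 0.62 ± 0.41 SE (edgeR adjusted p = 0.368 and 0.426), and without SSC 1013/1013 replicate 2 the second changed sign, to -0.27. Cdkn2b likewise split the 1013/1013 SSCs, with 12.3 CPM in one library and 1.64 CPM in the other against 2.40 to 3.50 CPM in WT. Its log2 fold change of 1.31 ± 0.81 (edgeR adjusted p = 0.4) became 2.07 and was called when replicate 2 was left out, where 14.8% of all genes tested were called with it, and was -0.83 when replicate 1 was left out.

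In OPCs no member was called either, against 0% and 0.00617% of the 16207 genes tested in +/1013 and 1013/1013 cells, and none had an unadjusted p under 0.05 or a call by DESeq2's Wald test. Of all genes, 331 and 548 had an unadjusted p under 0.05, and DESeq2 called 58 and 42. The members had median log2 fold changes of 0.26 and 0.05, against -0.0042 and 0.01 for all genes. No member separated the mutant OPCs from WT without overlap, while 5.28% and 7.61% of all genes tested did. Cdk4 varied least, at 201, 242 and 233 CPM in WT, 211, 237 and 219.7 CPM in +/1013 and 206, 192 and 262 CPM in 1013/1013 libraries. Ccnd1 had the largest log2 fold change in +/1013 OPCs, 0.76 ± 0.46 SE, from 36.1, 31.0 and 11.4 CPM in WT and 65.7, 40.5 and 27.5 CPM in +/1013 libraries, which overlapped. Ccnd2 had a mean of 91.0 ± 20.0 CPM (SD, n = 3) in WT, 74.0 ± 20.0 CPM (SD, n = 3) in +/1013 and 58.6 ± 28 CPM (SD, n = 3) in 1013/1013 OPCs, with log2 fold changes of -0.31 ± 0.38 and -0.64 ± 0.38.

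**Figure D5:**
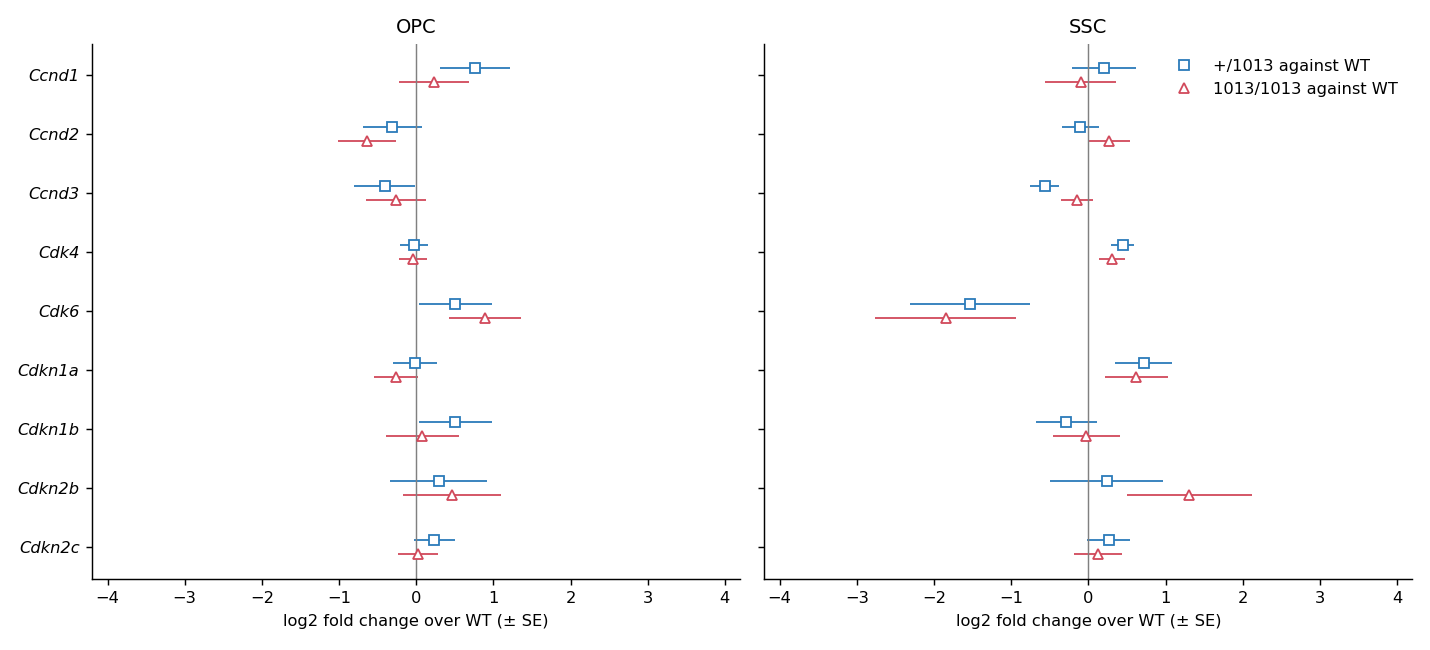
Log2 fold change over WT, with its SE, for 9 of the genes in OPCs (left) and SSCs (right), squares for +/1013 and triangles for 1013/1013 libraries. All symbols are open because no gene is called. Cdk6 in SSCs has the lowest values, -1.54 and -1.85, and in OPCs lies at 0.51 and 0.89.

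Whether a genotype effect differed between the cell types was tested as an interaction in the fit of all 17 libraries. No member was called, where 0.084% of all genes tested were called for +/1013 and 0.153% for 1013/1013. At an unadjusted p under 0.05, 2 members (Cdk4 and Cdk6) and 1 member (Cdk6) passed, and DESeq2 called 0. Of all 20238 genes tested, 2153 and 3037 had an unadjusted p under 0.05, and DESeq2 called 437 and 1142. The median of all genes was -0.14 and -0.39. Cdk6 had the largest values among the 9 members with counts above the limit, -2.02 ± 0.90 SE for +/1013 and -2.75 ± 0.98 SE for 1013/1013 on the log2 scale (edgeR adjusted p = 0.454 and 0.244), the SSC effect being the lower one in both. Without the 3 leukocyte-rich libraries these values of Cdk6 were -1.22 and -2.23 (edgeR adjusted p = 0.89 and 0.526). Cdk4 had 0.49 ± 0.22 and 0.33 ± 0.23 (edgeR adjusted p = 0.456 and 0.515), and Cdkn1a 0.74 ± 0.48 and 0.88 ± 0.51 (edgeR adjusted p = 0.636 and 0.433). The larger distance between SSCs and OPCs for Cdk6 in the mutants than in WT was therefore not shown to exceed the spread between libraries.

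Around the 10 genes, 5 lists describe the rest of the pathway. Of 27 other genes of the G1/S step 1 was called higher and 5 lower in SSCs on average over genotypes, which is 6 of 27 called where the share over all genes tested was 30.2%, with a median log2 fold change of -0.35 against -0.04. E2f2, an E2F factor (log2 -2.91 ± 0.60), Skp2, the ubiquitin ligase subunit that marks p27 for degradation (-2.30 ± 0.67), Cdc25a, the phosphatase that activates CDKs (-1.34 ± 0.28), and Cdkn1c, encoding the third CIP/KIP protein p57 (-0.98 ± 0.24), led this list, and Skp2 was at 0.347 CPM or less in every library. The remaining calls, named after their values were seen, were Cdk7, the kinase that activates other CDKs (-0.88, without overlap), and Cks1b, a CDK-binding subunit (0.87). The highest E2f2 values of each cell type, 31.8 CPM in OPCs and 9.60 CPM in SSCs, came from OPC 1013/1013 replicate 2 and SSC WT replicate 3, the libraries with high leukocyte sums. Cdkn2d, the fourth INK4 gene, and Rb1 were not called (log2 -0.23 ± 0.21 and -1.27 ± 0.58, edgeR adjusted p = 0.451 and 0.107).

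Of 20 genes in the p53 list, p53 itself and its targets, 6 were called higher and 2 lower in SSCs, against 15.3% higher and 14.9% lower over all genes, with a median of 0.15. Phlda3, an inhibitor of Akt, was 60.6 to 147 CPM in SSCs and 20.7 to 60.4 CPM in OPCs, which did not overlap (log2 1.60 ± 0.15). Fas, the death receptor (1.31 ± 0.21), and Eda2r, a receptor of the same family (1.10 ± 0.37), were called higher, and Ccng1 (-0.80 ± 0.19), a cyclin induced by p53, was called lower, as was Sesn2 (-0.66), named after its value was seen. Of 8 Polycomb and related regulators of the Ink4 locus, Cbx7, a Polycomb subunit that represses it, and Kdm6b, a demethylase that opposes it, were both called higher (1.62 ± 0.52 and 0.97 ± 0.34), and none of 3 FOXO factors was called. These are 2 of 8 and 0 of 3, against 30.2% of all genes.

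Of 10 proliferation markers, Pcna was called higher in SSCs (log2 1.70 ± 0.19, 37.0 to 105 CPM against 14.1 to 22.9 CPM in OPCs) and Cdk1 lower (-2.37 ± 0.73), which is 2 of 10 against 30.2% of all genes, with a median of -1.65. Pcna serves DNA repair as well as replication and is itself a p53 target. Mki67, the gene of the Ki-67 antigen, was not called (0.42 ± 0.87, edgeR adjusted p = 0.799), with 0 to 10.2 CPM in OPCs and 0.377 to 32.7 CPM in SSCs, the highest in SSC WT replicate 3. In the 4 genotype comparisons no gene of these 5 lists was called. Mki67 had 4.58, 2.17 and 32.7 CPM in WT SSCs and 0.377, 0.613 and 1.41 CPM in +/1013 SSCs, which did not overlap (log2 -4.08 ± 1.21, edgeR adjusted p = 0.179). Of all genes tested, 31.2% separated these groups. The 1013/1013 libraries at 14.4 and 3.67 CPM lay within the WT range. Leukocyte marker sums were 172 to 3346 CPM in WT and 39.5 to 89.8 CPM in +/1013 SSCs, and their part in the Mki67 values was not tested.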

How the data were processed

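RNA from pools of sorted OPCs and SSCs was amplified with the SMART-Seq v4 kit and sequenced without strand information. The deposited values are raw counts of reads per gene, which the authors made with STAR on the mm10 genome and HTSeq. The counting options and annotation release are not given in the sources used here. Identifiers were matched to GENCODE M21 (55154 of 55335), and the special counters of unassigned reads were left out. Genes were filtered with filterByExpr, scaled by TMM and tested with edgeR 4.0.16 in R 4.3.3 (quasi-likelihood F test, Benjamini-Hochberg adjustment over all genes tested). A gene was called at an adjusted p under 0.05 and at least 1.5-fold. Cell types and interactions were tested in a fit of all 17 libraries (20238 genes), genotypes within the OPC (16207 genes) or SSC libraries (17659 genes). CPM was scaled by TMM, and RPKM divides it by merged exon length. Scripts were tested on simulated data. Promoter windows are from RefSeq (GRCm38.p6), which holds one for 8 of the 10 members and not for Ccnd1 and Ccnd2.

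All 10 members were named in every comparison. Genes of the pathway lists (other G1/S genes, p53 and its targets, Polycomb regulators, FOXO factors, proliferation markers) were named where called between cell types, at most 4 per list with the largest change, and Mki67, Cdkn1c, Cdkn2d and Rb1 always. The members and lists were chosen with earlier results of these data known. Alternatives were DESeq2 1.42.0, its size factors, the newer edgeR fit, other filters, other sets of libraries, a replicate block and leaving out each library. Leaving out libraries rich in leukocyte transcripts was added after seeing the data.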

Additional observations from a re-analysis of the deposited data

Results flagged for a closer look

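From the pathway lists, 3 genes were higher or lower than WT without overlap in 1013/1013 SSCs and moved the opposite way, again without overlap, in 1013/1013 OPCs. Of all genes tested, 40.7% separated 1013/1013 from WT in SSCs and 7.61% in OPCs, and how many did both in opposite directions was not counted. The edgeR test of the difference between the cell types did not pass the threshold for any of them. Ccnh, the cyclin partner of Cdk7, had a log2 fold change of 1.01 in SSCs and -0.29 in OPCs, a difference of 1.28 ± 0.38 SE (edgeR adjusted p = 0.184). Phlda3, a p53 target, had 0.52 and -0.59, a difference of 1.09 ± 0.38 SE (edgeR adjusted p = 0.233). Sesn2, another p53 target, had -0.47 and 0.51, a difference of -0.99 ± 0.42 SE (edgeR adjusted p = 0.306).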

How the results depend on the processing

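The 5 calls between the cell types on average over genotypes (Ccnd1, Ccnd2, Cdk4, Cdk6 and Cdkn1a) were the same 5 genes under DESeq2, its size factors, the newer edgeR fit, no filter, a minimum of 10 counts, additive terms, the replicate block, and without the 3 leukocyte-rich libraries, also with SSC 1013/1013 replicate 1 left out as well. Leaving out 1 library gave 5 to 6 calls. Without OPC +/1013 replicate 3 Ccnd3 was added (log2 -0.59), and without SSC 1013/1013 replicate 2 Cdkn2c replaced Cdkn1a. In WT the count of 2 became 1 with no filter, with only the 2 groups compared and without the 3 libraries, and was 1 to 2 when 1 library was left out. In 1013/1013 cells the count of 4 became 0 with only the 2 groups compared, and 2 to 4 without 1 library. In +/1013 cells the count of 3 was 2 to 3 without 1 library. Under DESeq2, the newer edgeR fit and the minimum of 10 counts the counts in 1013/1013 and +/1013 cells became 5 and 4, with Cdkn1a added. Cdkn2a was not tested under that minimum and in some fits of fewer libraries. Within SSCs the 1013/1013 count was 0 to 1 without 1 library, the 1 being Cdkn2b in a fit that called 14.8% of all genes.

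Some values that were not called changed sign. Cdkn2b between the cell types went from 0.13 to -0.56 without SSC 1013/1013 replicate 1 (range 0.42 at the other end, without replicate 2) and to -0.43 without that library and the 3 others. In WT Cdkn2b was 0.026 with the replicate block, 0.50 without the 3 libraries, and -0.49 to 0.39 without 1 library. In 1013/1013 cells it ranged from -1.40 to 1.54, and against WT in SSCs from -0.83 to 2.07. Cdkn1b in +/1013 cells ranged from -0.40 to 0.35. Ccnd3 in 1013/1013 cells ranged from -0.56 to 0.11 and was 0.10 without the 3 libraries. Ccnd1 in 1013/1013 OPCs against WT ranged from -0.13 to 0.53, and Cdkn1a in 1013/1013 SSCs from -0.27 to 1.14. The cause was not tested. Where 1 SSC 1013/1013 library remained, it was assumed to vary like the other groups.

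Deviations from the group means had r from -0.21 to 0.24 between same-numbered OPC libraries and -0.07 to 0.10 between same-numbered SSC libraries. Between cell types r was -0.27 to 0.27. Median r for same and for other numbers was 0.09 and -0.04 in OPCs, -0.02 and 0.0074 in SSCs, and -0.0016 and 0.0046 between cell types. Deviations within a group of 2 or 3 libraries sum to 0, so r cannot decide whether the numbers pair libraries. The replicate block called 5 members on average, 2 in WT, 3 in +/1013 (Cdkn1a in place of Cdk6) and 5 in 1013/1013 cells (Cdkn1a added), and 0 in the genotype and interaction comparisons.

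DESeq2 called 3833, 4282 and 4772 of all genes between cell types by genotype, where edgeR called 2308, 2521 and 2642, and 437 and 1142 for the interactions, where edgeR called 17 and 31. Within SSCs edgeR called 13 and 0 genes, and 145 and 212 with all 17 libraries in one fit.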

Other observations

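Cdkn1c, which encodes p57, was higher than WT without overlap in SSCs of both mutant genotypes, which share the WT libraries. In these comparisons 31.2% (+/1013) and 40.7% (1013/1013) of all genes tested separated from WT in either direction. The log2 fold changes were 1.09 ± 0.28 SE in +/1013 and 0.99 ± 0.31 SE in 1013/1013 SSCs (edgeR adjusted p = 0.158 and 0.181), so Cdkn1c was not called.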
